A study of Mus musculus with 30 samples.

Results

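Tumours from mice given antibiotics were compared with tumours from mice given water at 0 h after oxaliplatin, the first time point of the study. The comparison holds 10 of the 30 arrays of the study, 5 for each group, and all 19938 genes that could be named on the array, with no filter on dim genes. EL4 cells, which derive from a T cell lymphoma of a mouse, had been placed under the skin of the flank, and the sample titles call the samples WT. The antibiotic group had received an antibiotic cocktail for 3 weeks before the EL4 cells were injected, and the water group had been left without it. Neither the drugs in the cocktail nor the strain, sex or age of the mice is given in the labels. Tumours were 7 days old when the mice got 10 mg/kg oxaliplatin, a platinum drug that damages DNA, into the abdomen, and the study's other groups were taken 6 and 18 h later. The question was how antibiotic treatment before chemotherapy changes a tumour and its answer to the drug, and the 0 h groups bear on the state of the tumour at the time of injection.

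Cells that lack amino acids, or whose endoplasmic reticulum, haem supply or mitochondria are disturbed, phosphorylate the translation factor eIF2alpha. General protein synthesis then slows while the transcription factor ATF4 is made more efficiently, and ATF4 switches on amino acid transporters, enzymes of serine, glycine and asparagine synthesis, aminoacyl-tRNA synthetases and the regulators CHOP (the gene Ddit3), TRIB3 and CHAC1. This programme is called the integrated stress response. The unfolded protein response of the endoplasmic reticulum shares its ATF4 branch but also has branches of its own, whose targets are chaperones such as Hspa5.

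Values are log2 expression as deposited, so a difference of 1 is a 2.0-fold change. The array medians lay between 7.253 and 7.365, and any pair of the 30 arrays correlated with r between 0.9846 and 0.9980 over all rows. A gene's SD over 5 arrays had a median of 0.0979 in the water group and 0.0978 in the antibiotic group at 0 h. The EL4 markers Thy1 and Cd3e were bright in both groups, at 11.98 ± 0.076 and 11.40 ± 0.081 in water tumours (mean ± SD, n = 5). A p-value here sets a difference against the spread within all 6 groups of the 30 arrays, not within the 0 h groups alone. The labels do not say that the tumours of a group came from separate mice, so that spread can be technical in part. Tumours 1 to 5 are the water group and tumours 6 to 10 the antibiotic group, in blocks, so an effect of handling order cannot be told apart from the antibiotics.

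With antibiotics, 18 of 19938 genes were higher and 0 were lower at an adjusted p under 0.05 (0.0903% of genes in all; limma, Benjamini-Hochberg over all genes). They include the transcription factor Atf4, its targets Ddit3 and Trib3, the amino acid transporters Slc1a4, Slc3a2 and Slc6a9, the mitochondrial enzyme Pck2 and the lymphocyte activation marker Cd69. The rises were small, between 0.23 and 0.81 on the log2 scale, or 1.17-fold to 1.75-fold, with a median of 0.37. In 17 of the 18 genes every antibiotic tumour was above every water tumour, the exception being Ciart. Over all genes such a gap was found for 176 genes with the antibiotic arrays above (0.883%) and for 152 with them below (0.762%). At an unadjusted p under 0.05 there were 657 genes above (3.3%) and 660 below (3.31%), 1317 in all (6.61%) where about 997 would be reached by chance. The median difference over all genes was -0.006, and 46.8% of genes were above 0. The smallest adjusted p among the genes below 0 was 0.0595.

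**Figure D1:**
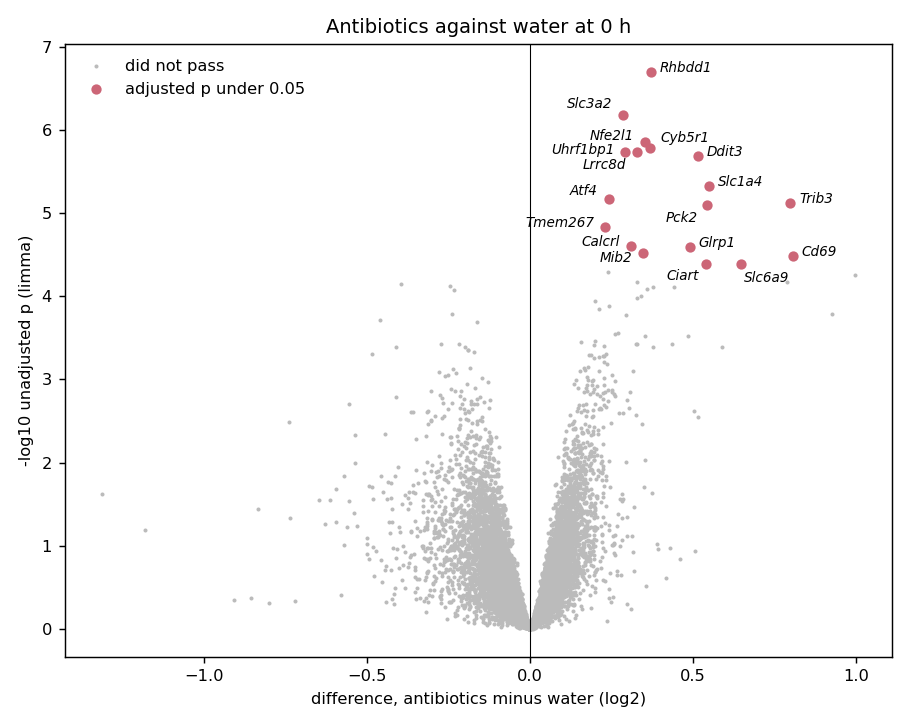
Each point is 1 of 19938 genes, with the difference between antibiotic and water tumours at 0 h (log2) on the x axis and the size of the unadjusted limma p as its negative log10 on the y axis. The 18 genes that passed all lie to the right, between 0.23 and 0.81, while grey points are spread to either side of 0.

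The regulators of the integrated stress response were described first. Atf4 read 9.61, 9.66, 9.67, 9.58 and 9.55 in water tumours 1 to 5 and 9.82, 9.86, 9.87, 9.89 and 9.83 in antibiotic tumours 6 to 10. The antibiotic tumours lay close together and all above the water tumours, and the difference was 0.24 ± 0.044 (SE; adjusted p = 0.0147, limma). Ddit3, which encodes CHOP, a factor that pushes prolonged stress towards cell death, read 8.74, 9.08, 8.75, 8.61 and 8.78 in water and 9.14, 9.42, 9.46, 9.32 and 9.19 with antibiotics. Water tumour 2 was the highest of its group and came close to antibiotic tumour 6, without overlap, and the difference was 0.52 ± 0.086 (adjusted p = 0.0059). Trib3, a pseudokinase that binds ATF4 and limits its activity, read 8.16, 8.61, 8.50, 7.94 and 8.30 in water and 8.97, 9.23, 9.05, 9.11 and 9.15 with antibiotics, a difference of 0.80 ± 0.15 (adjusted p = 0.0147). The water tumours were spread more widely than the antibiotic tumours (SD 0.27 against 0.099).

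Chac1, which degrades glutathione, did not pass: it read 9.06, 9.60, 9.22, 8.99 and 9.07 in water and 9.87, 10.25, 10.42, 9.79 and 9.55 with antibiotics, a difference of 0.79 ± 0.17 with an adjusted p of 0.0595. Water tumour 2 lay above antibiotic tumour 10, so the groups overlapped. Of 22 tested genes on the integrated stress and unfolded protein list, 3 were higher (Atf4, Ddit3 and Trib3) and 0 were lower. Of all genes 0.0903% were higher. At an unadjusted p under 0.05, 9 were above 0 on the list (3.3% of all genes), and 16 were above 0 at all (46.8% of all genes). The median of the list was 0.079, beside -0.006 over all genes. Herpud1, part of the machinery that clears proteins from the endoplasmic reticulum, differed by 0.22 ± 0.065 and the eIF2alpha phosphatase subunit Ppp1r15a by 0.22 ± 0.084, neither passing (adjusted p = 0.296 and 0.565). Sesn2, an amino acid sensor that ATF4 and p53 can both induce, differed by 0.51 ± 0.16 (adjusted p = 0.321) although its arrays did not overlap.

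The chaperones of the unfolded protein response gave values near 0. Hspa5, the main chaperone of the endoplasmic reticulum, read 12.22, 12.26, 12.35, 12.24 and 12.26 in water and 12.24, 12.22, 12.22, 12.37 and 12.28 with antibiotics. The groups overlapped, and the 95% interval of the difference was -0.11 to 0.11. The intervals were -0.10 to 0.12 for Hsp90b1, -0.07 to 0.08 for Calr and -0.12 to 0.08 for Xbp1, a transcription factor of the unfolded protein response. Pdia4, a disulfide isomerase, has 2 array rows that gave 0.04 and -0.20. Not every unfolded protein gene on the list was near 0. Ern1 differed by 0.18 ± 0.065 and Edem1 by 0.10 ± 0.053, while Dnajb9 differed by -0.10 ± 0.13 and Sdf2l1 by -0.04 ± 0.053. None of them passed, and their arrays overlapped. Atf3 and Vldlr, often induced with ATF4, differed by -0.29 ± 0.15 and -0.29 ± 0.16 and did not pass.

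**Figure D2:**
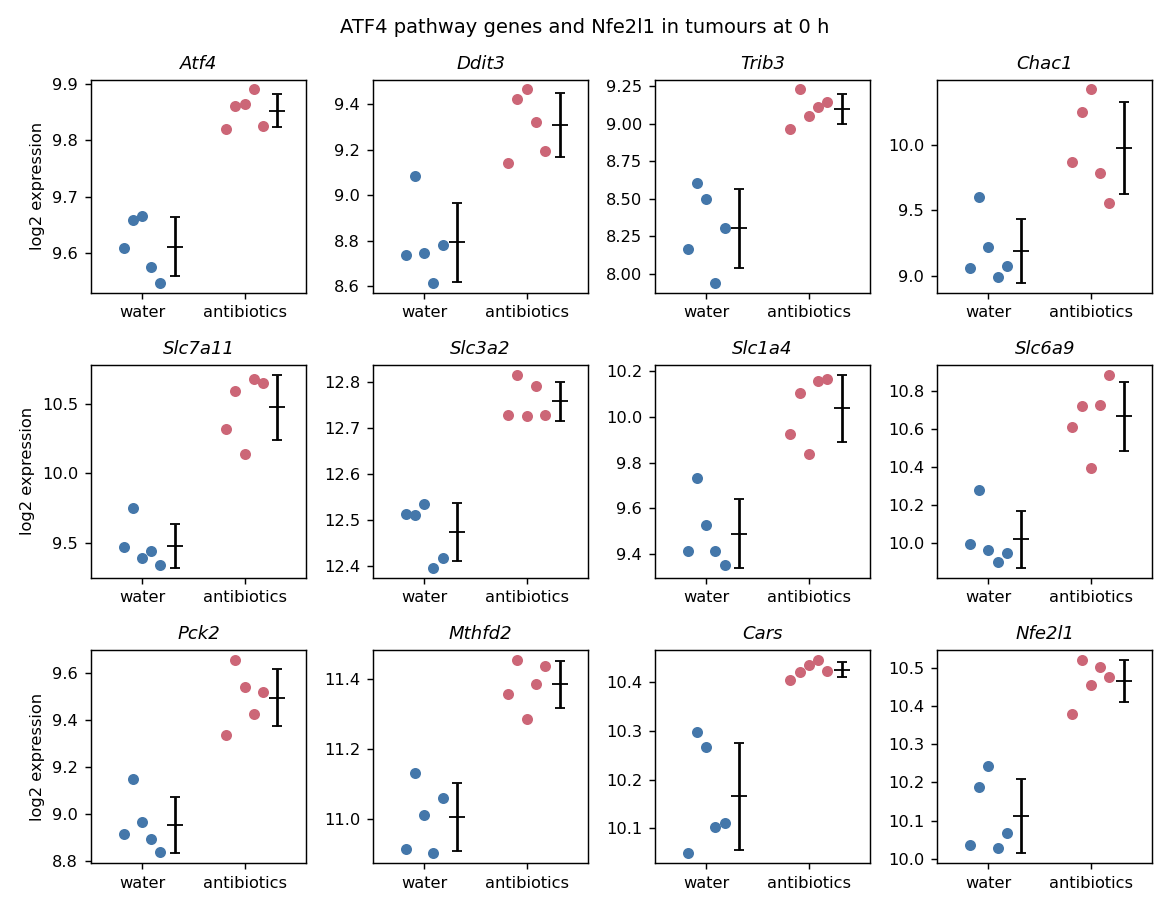
Log2 expression of 12 genes in the 5 water tumours (blue) and the 5 antibiotic tumours (red) at 0 h, each point 1 tumour, with the mean and SD as bars beside the points. Axes differ between panels and do not start at 0. Antibiotic tumours sit above water tumours in every panel, with an overlap in Chac1 only, while Chac1, Slc7a11, Mthfd2 and Cars did not pass the test.

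Amino acid transport was the second group. Slc3a2, the heavy chain that carries several light chains to the cell surface, read 12.51, 12.51, 12.53, 12.39 and 12.42 in water and 12.73, 12.82, 12.73, 12.79 and 12.73 with antibiotics, a difference of 0.28 ± 0.044 (adjusted p = 0.0059). The groups were separate and the spread was small in each, SD 0.064 and 0.043. Slc1a4, a carrier of alanine, serine and cysteine, read 9.42, 9.73, 9.53, 9.41 and 9.35 in water and 9.92, 10.10, 9.84, 10.16 and 10.16 with antibiotics, a difference of 0.55 ± 0.097 (adjusted p = 0.0119). Slc6a9, a glycine carrier, read 10.00, 10.28, 9.97, 9.90 and 9.95 in water and 10.61, 10.72, 10.39, 10.73 and 10.88 with antibiotics, a difference of 0.65 ± 0.13 (adjusted p = 0.0457). In both carriers water tumour 2 was the highest of its group and still below the lowest antibiotic tumour.

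Slc7a11, the light chain of the cystine and glutamate exchanger that feeds glutathione synthesis, had the largest difference of any gene above 0 and missed the threshold. It read 9.47, 9.75, 9.39, 9.44 and 9.34 in water and 10.32, 10.59, 10.14, 10.68 and 10.65 with antibiotics, a difference of 1.00 ± 0.21 (2.0-fold; adjusted p = 0.0552). The groups were separate, with water tumour 2 and antibiotic tumour 8 the closest. Of the 20 genes tested on the list of amino acid transport and synthesis, 3 were higher (Slc3a2, Slc1a4 and Slc6a9) and 0 were lower. The share of all genes that were higher was 0.0903%. At an unadjusted p under 0.05, 13 were above 0 on the list (3.3% of all genes), and 19 were above 0 at all (46.8% of all genes). The list median was 0.163. The leucine carrier light chain Slc7a5 differed by 0.25 ± 0.068 and the arginine carrier Slc7a1 by 0.26 ± 0.073, neither passing (adjusted p = 0.221 and 0.258).

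Among enzymes, Pck2, the mitochondrial form of phosphoenolpyruvate carboxykinase, read 8.91, 9.15, 8.97, 8.89 and 8.84 in water and 9.34, 9.66, 9.54, 9.42 and 9.52 with antibiotics, a difference of 0.54 ± 0.099 (adjusted p = 0.0147). Mthfd2, a mitochondrial enzyme of folate metabolism, read 10.92, 11.13, 11.01, 10.90 and 11.06 in water and 11.36, 11.46, 11.29, 11.39 and 11.44 with antibiotics, a difference of 0.38 ± 0.082 that did not pass (adjusted p = 0.0595). The groups did not overlap in either gene. Gpt2, the mitochondrial alanine aminotransferase, differed by 0.44 ± 0.096 (adjusted p = 0.0595) and Psph, the last step of serine synthesis, by 0.30 ± 0.086 (adjusted p = 0.274), and neither passed. The other serine pathway enzymes Psat1 and Phgdh differed by 0.14 ± 0.047 and 0.14 ± 0.068. Asns, the asparagine synthetase and a classical ATF4 target, differed by 0.06 ± 0.042, with a 95% interval of -0.03 to 0.15, and its arrays overlapped.

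Of 17 aminoacyl-tRNA synthetases tested, which charge tRNAs with their amino acids, 0 passed and 11 were above 0 at an unadjusted p under 0.05 (3.3% of all genes). In all, 14 were above 0 (46.8% of all genes), with a list median of 0.149. Cars, for cysteine, read 10.05, 10.30, 10.27, 10.10 and 10.11 in water and 10.41, 10.42, 10.44, 10.45 and 10.42 with antibiotics, a difference of 0.26 ± 0.063 (adjusted p = 0.142). Eprs, for glutamate and proline, differed by 0.24 ± 0.054 (adjusted p = 0.0808) and Lars, for leucine, by 0.33 ± 0.081 (adjusted p = 0.148). Kars and Vars, for lysine and valine, differed by -0.0006 ± 0.036 and 0.01 ± 0.045. Of 27 ribosome biogenesis genes 0 passed and 9 were above 0 at an unadjusted p under 0.05 (3.3% of all genes). There were 25 above 0 at all (46.8% of all genes), with a median of 0.089. The mean of the amino acid list over its members, after centring each gene on its mean of all 30 arrays, ran from -0.047 to 0.069 in water tumours and from 0.16 to 0.318 in antibiotic tumours. For the integrated stress list it ran from -0.14 to 0.095 in water and from 0.104 to 0.18 with antibiotics, and for the synthetases from -0.036 to 0.063 and from 0.064 to 0.206. None of these 3 sets of means overlapped between the groups, and they are given as a description since the members were chosen with earlier results of these data known.

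**Figure D3:**
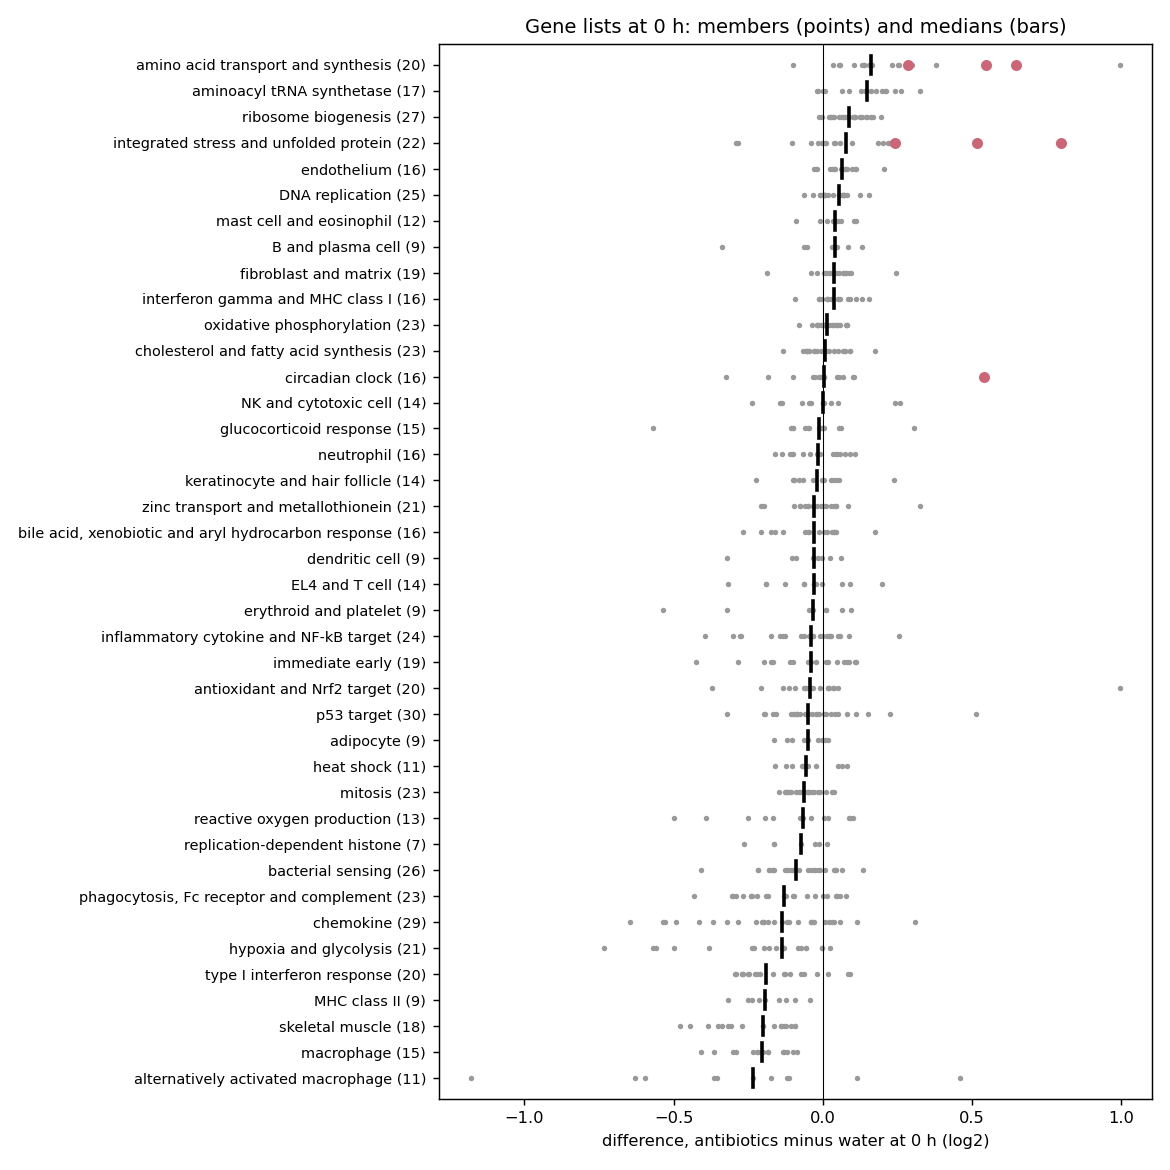
Differences between antibiotic and water tumours at 0 h (log2, x axis) for the tested members of 40 gene lists, with the number tested in brackets. Each small point is a gene, large red points passed the test and black bars mark list medians, which run from -0.233 for alternatively activated macrophage genes to 0.163 for amino acid transport and synthesis.

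Promoters of 5 of these genes are shown because ATF4 binds, together with C/EBP proteins, to a composite element with the letters TGATGNAA (TTNCATCA on the other strand). The sequences are from RefSeq (GRCm38.p6), run 5′ to 3′ along the gene's strand from 250 bases before the annotated start to 50 bases after it, and carry the matches in capitals. The windows are chr2:152344011-152344310 (minus strand) for Trib3, chr11:20332664-20332963 (minus strand) for Slc1a4, chr14:55540016-55540315 (plus strand) for Pck2, chr2:119350992-119351291 (plus strand) for Chac1 and chr3:50443564-50443863 (minus strand) for Slc7a11.
Trib3: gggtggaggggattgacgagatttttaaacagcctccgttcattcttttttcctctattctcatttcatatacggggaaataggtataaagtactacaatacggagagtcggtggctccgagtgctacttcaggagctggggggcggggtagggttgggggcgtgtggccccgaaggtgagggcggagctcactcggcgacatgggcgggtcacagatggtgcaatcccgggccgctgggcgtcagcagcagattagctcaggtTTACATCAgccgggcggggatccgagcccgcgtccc
Slc1a4: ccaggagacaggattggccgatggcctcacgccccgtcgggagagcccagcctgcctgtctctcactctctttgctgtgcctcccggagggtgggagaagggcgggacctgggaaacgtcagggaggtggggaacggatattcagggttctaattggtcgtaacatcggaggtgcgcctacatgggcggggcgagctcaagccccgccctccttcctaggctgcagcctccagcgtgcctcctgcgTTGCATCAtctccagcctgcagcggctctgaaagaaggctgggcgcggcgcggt
Pck2: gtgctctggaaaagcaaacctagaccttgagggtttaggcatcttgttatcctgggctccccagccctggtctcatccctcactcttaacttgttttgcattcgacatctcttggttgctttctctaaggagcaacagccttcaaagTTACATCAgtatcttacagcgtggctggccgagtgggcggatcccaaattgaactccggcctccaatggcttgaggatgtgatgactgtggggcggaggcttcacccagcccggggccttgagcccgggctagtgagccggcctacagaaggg
Chac1: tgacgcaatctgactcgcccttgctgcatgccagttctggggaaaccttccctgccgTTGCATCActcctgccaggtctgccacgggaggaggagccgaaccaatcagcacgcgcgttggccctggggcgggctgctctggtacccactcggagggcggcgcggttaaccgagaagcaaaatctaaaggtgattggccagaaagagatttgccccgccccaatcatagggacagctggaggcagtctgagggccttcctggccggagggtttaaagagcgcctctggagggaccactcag
Slc7a11: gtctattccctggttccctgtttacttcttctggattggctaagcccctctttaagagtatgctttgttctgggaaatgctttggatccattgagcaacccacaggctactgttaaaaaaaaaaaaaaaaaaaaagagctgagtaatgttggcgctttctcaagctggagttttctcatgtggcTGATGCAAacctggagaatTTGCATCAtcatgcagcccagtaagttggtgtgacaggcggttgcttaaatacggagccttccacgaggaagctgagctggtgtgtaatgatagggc
The first base of the match lies at position 15 from the start in Trib3, -4 in Slc1a4, -103 in Pck2 and -193 in Chac1, and Slc7a11 has 2 matches, at -66 and -47, in opposite orientation. Of the 16 higher genes with a promoter window, 4 held the letters (25%), the fourth being Calcrl, beside 565 of 15614 genes tested (3.62%). On the integrated stress list they were found in 7 of 22 genes (31.8%), on the amino acid list in 3 of 15 (20%) and among the synthetases in 4 of 10 (40%). The 7 include Atf3, Vldlr and Asns, which differed by -0.29, -0.29 and 0.06 at 0 h. The others were Trib3, Chac1, Herpud1 and Nupr1, at 0.80, 0.79, 0.22 and 0.23, of which only Trib3 passed. Atf4, Ddit3, Slc3a2, Slc6a9, Mthfd2, Psph and the synthetase Sars had no match in these windows, while the 5 promoters shown all hold a match. A match is a description of the letters and not evidence of binding, and the motif was chosen after the values were seen. The 3 lists include genes known as ATF4 targets, so their higher shares are no test of these data.

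Of the 18 higher genes 7 stand on a list, the 6 named above and the clock gene Ciart. Rhbdd1, an intramembrane protease of the endoplasmic reticulum that takes part in protein clearance, had the smallest p of all: it read 9.11, 9.20, 9.23, 9.04 and 9.13 in water and 9.38, 9.50, 9.40, 9.64 and 9.64 with antibiotics, a difference of 0.37 ± 0.054 (adjusted p = 0.00401). Nfe2l1, a membrane-bound transcription factor that induces proteasome genes, read 10.04, 10.19, 10.24, 10.03 and 10.07 in water and 10.38, 10.52, 10.46, 10.50 and 10.48 with antibiotics, a difference of 0.35 ± 0.058 (adjusted p = 0.0059). In both genes the groups were separate. Cyb5r1, a cytochrome b5 reductase, differed by 0.37 ± 0.061 and Lrrc8d, a subunit of volume-regulated anion channels that can carry platinum drugs into cells, by 0.33 ± 0.054 (adjusted p = 0.0059 and 0.0059). Lrrc8d read 8.85, 8.95, 8.91, 8.84 and 8.82 in water and 9.17, 9.39, 9.07, 9.16 and 9.21 with antibiotics, with antibiotic tumour 7 the highest of all.

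Cd69, a surface protein that appears early when lymphocytes are activated, had the largest difference of those that passed. It read 8.90, 9.42, 9.23, 9.11 and 9.42 in water and 9.95, 10.18, 10.13, 10.10 and 9.76 with antibiotics, a difference of 0.81 ± 0.16 (1.75-fold; adjusted p = 0.0408). The lowest antibiotic tumour, 10, was above the highest water tumours, 2 and 5. In bulk tumours more cells of a type and more RNA per cell cannot be told apart, here or for any gene below. Ciart, a repressor in the circadian clock, read 8.28, 8.66, 7.86, 8.14 and 8.41 in water and 8.74, 9.03, 8.64, 8.79 and 8.86 with antibiotics, a difference of 0.54 ± 0.11 (adjusted p = 0.0457), and its groups overlapped between water tumour 2 and antibiotic tumour 8. Of 16 clock genes tested it was the 1 that passed, the list median was 0.003, and the clock output gene Dbp differed by 0.05 ± 0.061. A second array row for Ciart gave 0.46. The remaining higher genes were Glrp1 at 0.49 ± 0.097, the ubiquitin ligase Mib2 at 0.35 ± 0.07, Calcrl, the receptor for adrenomedullin and CGRP, at 0.31 ± 0.061, Uhrf1bp1 at 0.29 ± 0.049 and the membrane protein Tmem267 at 0.23 ± 0.044, with adjusted p from 0.0059 to 0.0402.

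Just outside the threshold, with an adjusted p from 0.0531 to 0.0942, lay 14 genes with a difference above 0 and 4 with a difference below 0. Besides Slc7a11, Chac1, Gpt2, Mthfd2 and Eprs, the genes above 0 included Dennd2d, an exchange factor for Rab proteins, at 0.93 ± 0.21 with overlapping arrays, the phosphate carrier Slc20a1 at 0.20 ± 0.045 and the pyrimidine nucleotide carrier of mitochondria, Slc25a33, at 0.33 ± 0.072. The 4 below 0 were the dynein chain Dnah8 at -0.39 ± 0.084, Dap, a regulator of autophagy, at -0.25 ± 0.053, the sulfotransferase Sult1d1 at -0.23 ± 0.05 and the ubiquitin ligase Rnf43, which limits Wnt signalling, at -0.24 ± 0.054. Dnah8 read 9.58, 9.51, 9.61, 9.82 and 9.43 in water and 8.94, 9.25, 9.40, 9.14 and 9.24 with antibiotics, and all antibiotic tumours were below all water tumours. Il18r1, the receptor chain for interleukin-18, read 10.52, 10.36, 10.20, 10.39 and 10.28 in water and 9.80, 9.78, 10.01, 9.99 and 9.88 with antibiotics, a difference of -0.46 ± 0.11 with separate groups that did not pass (adjusted p = 0.103). Among genes differing by more than 0.5 with no overlap, 9 were above 0 (0.0451%), among them Reep6 at 0.59 ± 0.15 (adjusted p = 0.148), and 1 was below 0 (0.00502%), the carbonyl reductase Cbr2 at -0.74 ± 0.23 (adjusted p = 0.346).

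Inflammatory and bacterial sensing genes gave no call at 0 h. Tnf read 9.13, 9.15, 9.17, 9.18 and 9.18 in water and 8.98, 9.09, 9.06, 9.19 and 9.12 with antibiotics, and the 95% interval of the difference was -0.20 to 0.06. Il1b, with an interval of -0.43 to 0.54, and Il6, with -0.38 to 0.89, overlapped between the groups, and antibiotic tumour 6 was the highest for both. Nos2, the inducible nitric oxide synthase, differed by -0.50 ± 0.29 (95% interval -1.09 to 0.09) and Cybb, the membrane subunit of the phagocyte oxidase, by -0.25 ± 0.23. The endotoxin receptor Tlr4 differed by -0.22 ± 0.21, its co-receptor Cd14 by -0.12 ± 0.22 and the adaptor Myd88 by -0.17 ± 0.062, with adjusted p of 0.998, 0.999 and 0.56. Of 24 inflammatory cytokine and NF-kB target genes 0 passed, 9 were above 0, 1 was below 0 at an unadjusted p under 0.05, Tnfaip3, and the median was -0.039. Of 26 bacterial sensing genes 0 passed, 6 were above 0, 2 were below 0 at an unadjusted p under 0.05 and the median was -0.089. Of 29 chemokine genes 0 passed, 7 were above 0, 5 were below 0 at an unadjusted p under 0.05 and the median was -0.135. Type I interferon genes were above 0 in 3 of 20, with a median of -0.189. Interferon gamma and MHC class I genes were above 0 in 12 of 16, with a median of 0.039, and 0 passed on either list. Beside these lists, 0.0903% of all genes passed, 46.8% were above 0 and 3.31% were below 0 at an unadjusted p under 0.05. Intervals of this width do not show that the groups were alike.

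**Figure D4:**
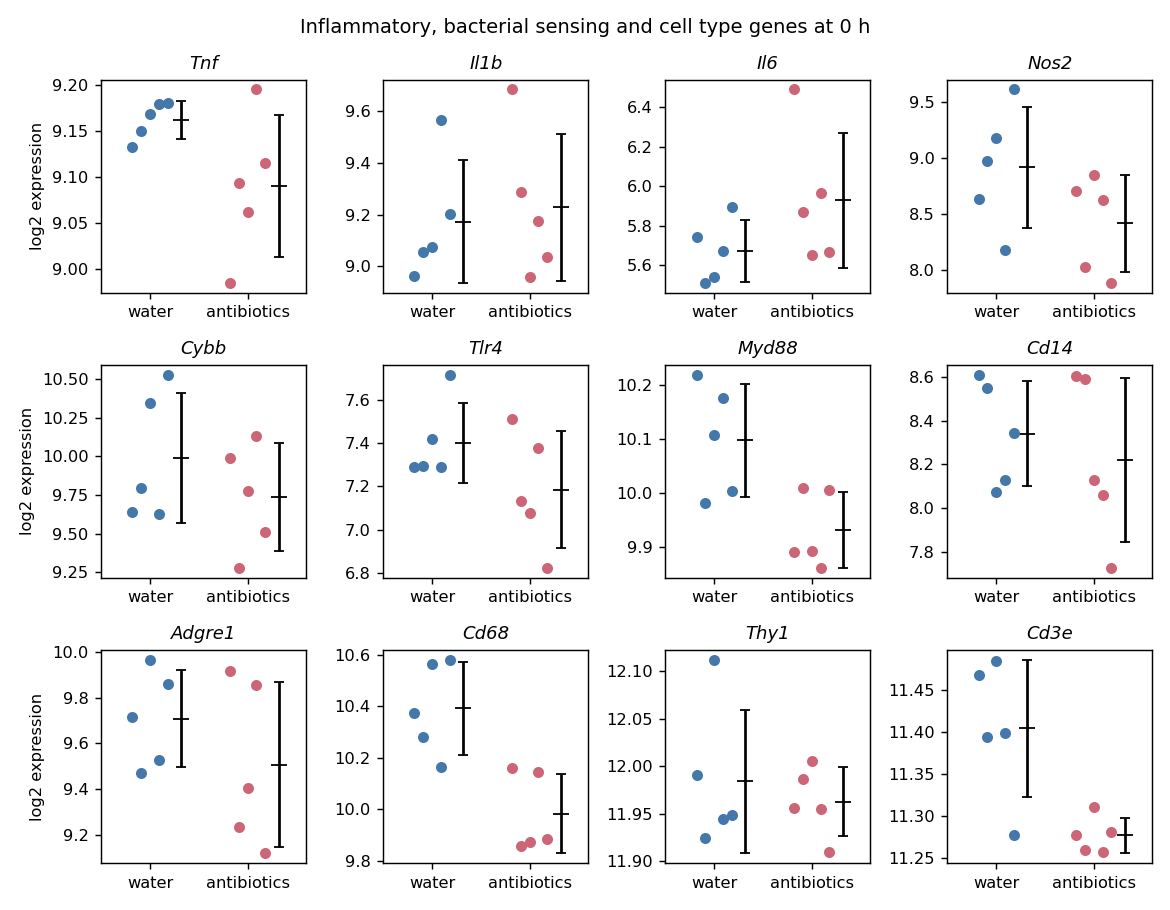
Log2 expression of 12 inflammatory, bacterial sensing and cell type genes in the 5 water tumours (blue) and the 5 antibiotic tumours (red) at 0 h, each point 1 tumour, with the mean and SD as bars. Axes differ between panels and do not start at 0. The groups overlap in all panels except Cd68, and none of the 12 genes passed.

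Markers of host cell types gave no call at 0 h, and the lists differed in sign. All 15 macrophage markers had a difference below 0, with a median of -0.202, from -0.41 to -0.09, and 2 at an unadjusted p under 0.05. For comparison, 46.8% of all genes were above 0, and 3.31% were below 0 at an unadjusted p under 0.05. Cd68, a lysosomal protein of macrophages, read 10.37, 10.28, 10.56, 10.16 and 10.58 in water and 10.16, 9.86, 9.87, 10.14 and 9.88 with antibiotics, a difference of -0.41 ± 0.10 (adjusted p = 0.148). Every antibiotic tumour was at or below the lowest water tumour, number 4, by the 2 decimals shown. Adgre1, a surface receptor of macrophages, differed by -0.20 ± 0.16 and overlapped. The mean of the macrophage list ran from -0.073 to 0.382 in water tumours and from -0.373 to 0.136 in antibiotic tumours, so the groups overlapped. All 9 MHC class II genes were below 0, with a median of -0.192 and 0 at an unadjusted p under 0.05. Alternatively activated macrophage genes had a median of -0.233, with Retnla at -1.18 ± 0.61 and Mgl2 at -0.59 ± 0.24, and 2 of 11 above 0.

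Skeletal muscle genes, which would come from the flank, were below 0 in 18 of 18, with a median of -0.199 and 0 at an unadjusted p under 0.05, and their list mean ran from -0.353 to 0.78 in water and from -0.376 to 0.537 with antibiotics. Hypoxia and glycolysis genes were above 0 in 1 of 21, with a median of -0.136, and 2 were below 0 at an unadjusted p under 0.05. The shares over all genes were 46.8% above 0, and 3.31% below 0 at that p. Other host lists lay mostly above 0: 13 of 16 endothelial genes with a median of 0.063, 16 of 19 fibroblast and matrix genes with a median of 0.039, 10 of 12 mast cell and eosinophil genes with a median of 0.042 and 6 of 9 B and plasma cell genes with a median of 0.041, in each case with 0 genes at an unadjusted p under 0.05. Neutrophil and dendritic cell genes had medians of -0.015 and -0.029, NK and cytotoxic cell genes 0.001, and keratinocyte, adipocyte and erythroid genes -0.018, -0.05 and -0.033. Of the 14 cell type lists 0 held a gene that passed, and the part of these markers in the differences of the stress and amino acid genes was not tested. Of 14 EL4 and T cell genes tested, 3 were above 0, with a median of -0.03. At an unadjusted p under 0.05, 1 was above 0 (3.3% of all genes) and 3 were below 0 (3.31%). The 1 above was Bcl11b at 0.20 ± 0.069. The 3 below were Cd4 at -0.32 ± 0.095, Cd5 at -0.19 ± 0.048 and Cd3e at -0.13 ± 0.046. None of them passed, and Thy1 differed by -0.02 ± 0.058. The p53 targets Mdm2 and Trp53inp1 differed by -0.05 ± 0.076 and -0.20 ± 0.18 (adjusted p = 0.999 and 0.998). The list of 30 p53 targets had a median of -0.05 with 0 passing and 10 above 0. At an unadjusted p under 0.05, 3 were above 0 (3.3% of all genes) and 1 was below 0 (3.31%). The 3 were Sesn2 at 0.51 ± 0.16, Plk3 at 0.22 ± 0.082 and Rrm2b at 0.15 ± 0.071, and the 1 below was Sesn1 at -0.17 ± 0.08.

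The same 18 genes were then read in the 20 arrays taken 6 and 18 h after oxaliplatin, which the 0 h comparison does not use except for the shared estimate of the spread. All 18 were above 0 at 6 h and 15 of them were higher (1.13% of all genes were), the others being Mib2, Calcrl and Tmem267. All 18 were above 0 at 18 h and 7 were higher (4.52% of all genes were): Slc6a9, Slc1a4, Ciart, Ddit3, Glrp1, Nfe2l1 and Atf4. Their median difference was 0.37 at 0 h, 0.358 at 6 h and 0.237 at 18 h. Since the 0 h values chose the genes, a larger median at 0 h can come from that choice. Trib3 differed by 1.08 ± 0.15 at 6 h and 0.44 ± 0.15 at 18 h, the latter not passing, and Atf4 by 0.28 ± 0.044 and 0.27 ± 0.044, both passing. The antibiotic group at 6 h was the most spread of all groups, with a median SD of 0.135 against 0.0799 in its water group, and the shared error understates it.

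Whether the antibiotic difference itself changed with time was tested by interactions. For the 18 genes 0 interactions passed at either time, with 1 at 6 h and 6 at 18 h at an unadjusted p under 0.05. In each of these genes the later difference was smaller. The 18 were chosen by their 0 h differences, which both interactions subtract. A smaller later difference is therefore expected from that choice alone, and the counts cannot tell it from a change with time. Over all genes 0 passed at 6 h against 0 h (1964 genes, 9.85%, at an unadjusted p under 0.05) and 21 passed at 18 h against 0 h (0.105%; 9.49% at an unadjusted p under 0.05). Sesn2 was among these: its difference was 0.51 ± 0.16 at 0 h, -0.07 ± 0.16 at 6 h and -0.57 ± 0.16 at 18 h. At 0 h it read 9.29, 9.41, 9.35, 9.29 and 9.01 in water and 9.54, 9.98, 9.79, 9.75 and 9.86 with antibiotics, with no overlap. The water group's mean was 9.27 at 0 h and 10.11 at 18 h, while the antibiotic group's was 9.78 and 9.53. Slc7a11, Chac1 and Mthfd2, which missed the threshold at 0 h, passed at both later times. Slc7a11 differed by 0.86 ± 0.21 and 0.90 ± 0.21, Chac1 by 0.98 ± 0.17 and 0.70 ± 0.17 and Mthfd2 by 0.45 ± 0.082 and 0.45 ± 0.082. Among genes below 0 at 0 h, Il18r1 passed at both later times, at -0.64 ± 0.11 and -0.46 ± 0.11. Dnah8 was lower at 6 h only (adjusted p = 0.00162, limma), and Dap and Cd68 at 18 h only (adjusted p = 0.00868 and 0.00197). Sult1d1 and Rnf43 passed at neither time. In all, 11 of 20 amino acid genes were higher at 6 h and 12 at 18 h, and 7 and 10 of the 17 synthetases. Of all genes, 226 (1.13%) were higher and 526 lower at 6 h, and 901 (4.52%) were higher and 665 lower at 18 h.

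**Figure D5:**
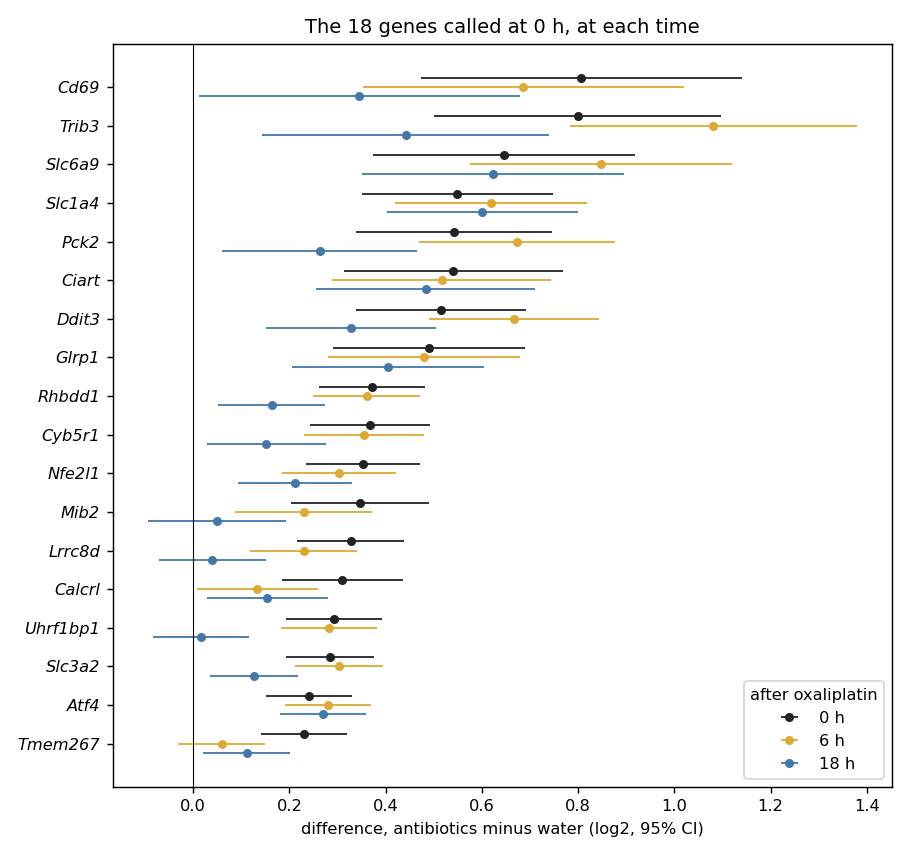
Difference between antibiotic and water tumours (log2, x axis, with 95% confidence intervals) for the 18 genes that passed at 0 h, at 0 h (black), 6 h (yellow) and 18 h (blue). The 0 h values chose the genes. All points lie above 0 at each time, but intervals include 0 for Tmem267 at 6 h and for Mib2, Lrrc8d and Uhrf1bp1 at 18 h.

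The number of genes that passed at 0 h changed when a single tumour was left out, which also makes its group smaller. It fell to 7 without water tumour 1 or antibiotic tumour 7 and to 8 without water tumour 4 or 5 or antibiotic tumour 9, and was 32 without antibiotic tumour 6. Of the 18 genes, 7 passed in each of the 10 fits that left out a tumour: Cyb5r1, Ddit3, Lrrc8d, Nfe2l1, Rhbdd1, Slc3a2 and Uhrf1bp1. Atf4 passed in 5 of the 10, with an adjusted p of up to 0.0669, and Cd69 in 3, with up to 0.185. Fitted on the 10 arrays of 0 h alone, 4 genes passed, Slc7a11, Pck2, Cd69 and Trib3, of which 3 are among the 18.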

How the data were processed

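RNA of 30 tumours was hybridised to 1 Affymetrix array each. The deposited values are log2 expression made by the authors, who used Partek 6.6 per the submitters' processing notes. The summary over probes and the normalisation are not given in the sources used here, and values were used as deposited. Of 28853 rows, 21775 had 1 gene symbol in the platform's table, which can be old, 1578 had several and 5500 had none. For 998 genes with several rows the row with the highest mean was taken, leaving 19938 genes.

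A linear model with 6 group means over the 30 arrays was fitted with limma 3.58.1 (lmFit and eBayes) in R 4.3.3, leaving 24 residual degrees of freedom. Contrasts were antibiotics minus water at each time and the change of that difference from 0 h. Tests were two-sided, with Benjamini-Hochberg adjustment over all genes, and the threshold was an adjusted p under 0.05. Errors of differences are the SEs of the fit, and the number of arrays limits the precision. The script was tested on simulated data.

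The members, the 40 gene lists and the rules were chosen with earlier results of these data known. Genes were named by rule. In each direction these were the 15 genes with the smallest p or, with over 15 passing, those 15 with the largest change. Numbered predictions, small RNAs and olfactory receptors were left out. The rule also named the strongest member of each list, every list member that passed and 17 genes whatever their value. Genes separated by more than 0.5 were to be counted, and named only if another part of the rule named them. Tmem267, Reep6, Cbr2, the genes near the threshold and some list members were outside the rule and named after their values were seen. Alternatives were other scalings, variance models, array weights, row choices, a filter on dim genes, a minimum change, an ordinary linear model, the 0 h arrays alone and leaving out each array. A fit without the 6 h arrays was added after the data were seen. Promoter windows were read from RefSeq tables and searched in Python 3.11.15.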

Additional observations from a re-analysis of the deposited data

Results flagged for a closer look

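Single tumours stood apart from the other 4 of their group in 8 of 104 groups examined, over 52 genes, by Dixon's test at 95%. Chance alone gives about 1 such group in 20. Water tumour 2 was the highest of its group for Slc6a9, at 10.3, and for Glrp1, at 9.44, and was also the highest water tumour for Trib3, Ddit3 and Chac1. Rnf43 had 2 such tumours, water tumour 5 as the highest at 8.19 and antibiotic tumour 7 as the lowest at 7.8. Antibiotic tumour 6 was the lowest for Inppl1, at 9.02, and for Mdm2, at 10.4. Antibiotic tumour 10 was the highest for Znrf1, at 9.87, and water tumour 5 the lowest for Reep6, at 8.96.

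In 4 named genes the antibiotic difference at 18 h differed from that at 0 h by the interaction test of limma. Over all genes 21 of 19938 passed that test (0.105%). All 4 were among the genes named whatever their value, which were chosen with earlier results of these data known. Their passing can come from that choice, so it is given as a description only. The change of the difference was -1.09 for Sesn2 (adjusted p = 0.0421), -0.60 for Agrn, 0.64 for Insig1, which restrains sterol synthesis, and 0.82 for the zinc importer Slc39a10, with adjusted p of 0.0158, 0.0227 and 0.00143 for the last 3. At 0 h the differences of Agrn and Insig1 were -0.01 and -0.02 with overlapping arrays, and that of Slc39a10 was -0.21 without overlap, and none passed.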

How the results depend on the processing

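The 18 genes that passed at 0 h became 28 after array medians were subtracted, 28 with quantile normalisation, 126 with array weights (105 above and 21 below 0), 35 among genes above the median brightness, 36 without the 6 h arrays (added after the data were seen) and 4 on the 0 h arrays alone. They became 0 under treat with a minimum change of 1.2-fold, where 21 genes had an unadjusted p under 0.05. An intensity trend with robust moderation gave 27 genes, the row with the largest SD 19 and an ordinary linear model 12. Leaving out each tumour gave 7 to 32, and the cause of these changes was not tested. Array weights, quantile normalisation and the trend were among the settings under which genes below 0 passed, 21, 3 and 2 of them. Subtracting array medians moved the median of all genes by 0.022, from -0.006 to 0.016, and quantile normalisation moved it by 0.0083. The macrophage, MHC class II and skeletal muscle lists kept 0 members above 0 under both scalings, while neutrophil, keratinocyte and glucocorticoid medians turned from -0.015, -0.018 and -0.011 to 0.007, 0.004 and 0.01 with medians subtracted.

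For the interaction at 6 h, 0 genes became 1 with array weights and 0 to 1 when a tumour was left out. For the interaction at 18 h, 21 genes became 6 with medians subtracted, 111 with quantile normalisation, 67 with the trend, 121 with array weights, 102 among brighter genes, 34 with the ordinary model, 0 under treat (52 at an unadjusted p under 0.05) and 12 without the 6 h arrays, and 2 to 119 when a tumour was left out. Among the other values no direction of a gene that passed turned. No depth limit applies to array signal, and the deposited values hold no background measure.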

Other observations

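The zinc and glucocorticoid lists held 0 genes that passed at 0 h, and members lay on either side of 0. Of 21 zinc genes, 1 was above and 2 were below 0 at an unadjusted p under 0.05 (3.3% and 3.31% of all genes). The exporter Slc30a1 differed by 0.33 ± 0.081 with overlapping arrays, and the importers Slc39a4 and Slc39a10 by -0.20 ± 0.070 and -0.21 ± 0.082 without overlap (adjusted p = 0.148, 0.518 and 0.602). Of 15 glucocorticoid genes, 1 was above and 1 below 0 at an unadjusted p under 0.05, Tsc22d3, which encodes GILZ, at 0.31 ± 0.086 and Lcn2, which binds bacterial siderophores, at -0.57 ± 0.22, both with overlapping arrays (adjusted p = 0.256 and 0.58).

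Of 20 antioxidant genes 0 passed, and 7 were above 0 (46.8% of all genes were). Slc7a11 at 1.00 ± 0.21 was the member above 0 with the smallest p, and below 0 it was Hmox1, which degrades haem, at -0.37 ± 0.16 (adjusted p = 0.0552 and 0.654). Nfe2l2, which encodes NRF2, differed by 0.02 ± 0.051.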
